A study of Mus musculus with 32 samples.

Results

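The comparison described here is the first transcriptional step of macrophages of the M-/-.Y721F line after CSF-1 was given back to starved cells. It rests on 4 of the 32 arrays of the series: M-/-.Y721F cells starved of CSF-1 overnight and then stimulated with CSF-1 for 20 min (2 arrays, series I and II), against M-/-.Y721F cells starved overnight and collected at 0 min (2 arrays, series I and II). All 4 samples are cultured mouse cells whose CSF-1 receptor carries the Y721F change, so the starved 0 min cells have the same receptor as the stimulated ones. Beside them are set M-/-.WT cells at 20 and 0 min, M-/-.Y721F cells at 60 and 180 min, and M-/-.Y721F cells grown constantly in CSF-1 or starved in a separate steady-state experiment, each with 2 arrays a group. The M-/- background is known as a macrophage line without a CSF-1 receptor of its own, into which each receptor form was put back. Each receptor form is present in 1 line, so the receptor and the line cannot be told apart. Routine cultures held human recombinant CSF-1 at 120 ng/mL, and no dose is stated for the timed stimulation. The samples are called biological replicates, with nothing more on how separate the cultures were, so the p-values measure the spread between such pairs of arrays.

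CSF-1 is the growth factor that keeps macrophages alive, dividing and differentiated, and it acts through the receptor tyrosine kinase CSF-1R. Ligand binding makes the receptor phosphorylate tyrosines of its own tail and kinase insert. Tyr-721 is known as the site that recruits phosphatidylinositol 3-kinase, and in Y721F it is a phenylalanine that cannot be phosphorylated. Other receptor tyrosines feed the Ras and ERK kinase cascade. Within minutes ERK-activated factors, such as the TCF partners of SRF, and CREB switch on immediate early genes, whose transcription needs no new protein and which are mostly transcription factors, mRNA-decay factors and feedback inhibitors.

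RNA was hybridised to Affymetrix Mouse Gene 1.0 ST arrays, and values are log2 signals of 1 probe set a gene for 19938 genes, so a difference of 1 is a doubling. The 4 arrays had median signals of 6.20 and 6.14 at 20 min and 6.11 and 6.10 at 0 min, and they correlated pairwise at r = 0.988 to 0.996 across genes. The macrophage label was checked against 16 measured identity genes, whose mean level was 10.53 and 10.64 at 20 min and 10.74 and 10.70 at 0 min. Csf1r stood at 12.92 and 12.97 at 20 min and at 13.00 and 12.83 at 0 min. Where its probes lie relative to the changed codon was not checked. Series I moved more than series II across the genome: the SD of the 20 minus 0 min step over all genes was 0.33 in series I and 0.20 in series II. In series I 68 genes stepped up and 123 stepped down by more than 1, and in series II 43 stepped up and 4 stepped down, with 37 of the upward steps and 1 of the downward steps in both. In bulk RNA, fewer cells that express a gene and less RNA per cell cannot be told apart.

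After 20 min of CSF-1, 15 genes rose and 1 fell in Y721F cells. A gene was called where limma gave a Benjamini-Hochberg adjusted p under 0.05 over all genes and a fold above 1.5, which was the case for 0.0752% of the genes tested upward and 0.00502% downward. The risers were Egr1, Egr2, Arc, Nr4a1, Fos, Ier2, Fosb, Rhob, Btg2, Zfp36, Trib1, Ppp1r15a, Junb, Jun and Slc20a1. Of these, 13 belong to the EGR, AP-1, NR4A and other immediate early lists described below. Those lists hold 6, 11, 3 and 30 of the 19938 genes. They were chosen with earlier results of these data known, so the count of 13 is not a test. With the series number as a block, which compares 20 min with 0 min inside each series, 39 genes rose (0.196%) and 10 fell (0.0502%), and all 16 genes called without the block were among them. The additional calls included the chemokines Ccl2 and Ccl7, the prostaglandin synthase Ptgs2, the ERK phosphatases Dusp1 and Dusp5, Socs3 and Myc. Both 20 min arrays lay above both 0 min arrays for 3922 genes (19.7%) and below them for 2264 (11.4%), so non-overlap by itself was common.

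Among the EGR zinc-finger factors, Egr1 and Egr2 rose and the others did not pass the test. Egr1 reached 11.24 and 11.03 at 20 min, against 6.56 and 6.24 at 0 min, a 26.6-fold rise (log2 difference 4.74, SE 0.30, limma adjusted p = 6.57e-05). The steps of the 2 series were nearly equal, at 4.68 and 4.79. Egr2 measured 11.48 and 9.81 at 20 min, against 6.47 and 6.27 at 0 min (19.4-fold, SE 0.66 on the log2 scale, adjusted p = 0.0457). Here the 2 stimulated arrays lay apart, and the step was 5.01 in series I and 3.54 in series II. Egr3 measured 8.85 and 7.73 at 20 min and 6.74 and 6.75 at 0 min, with the higher value again in series I, and did not pass with the block (adjusted p = 0.0639). Egr4 (0.09) and the NAB corepressors that bind EGR proteins, Nab1 (-0.26) and Nab2 (0.04), had differences near the median of all genes, 0.02.

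**Figure D1:**
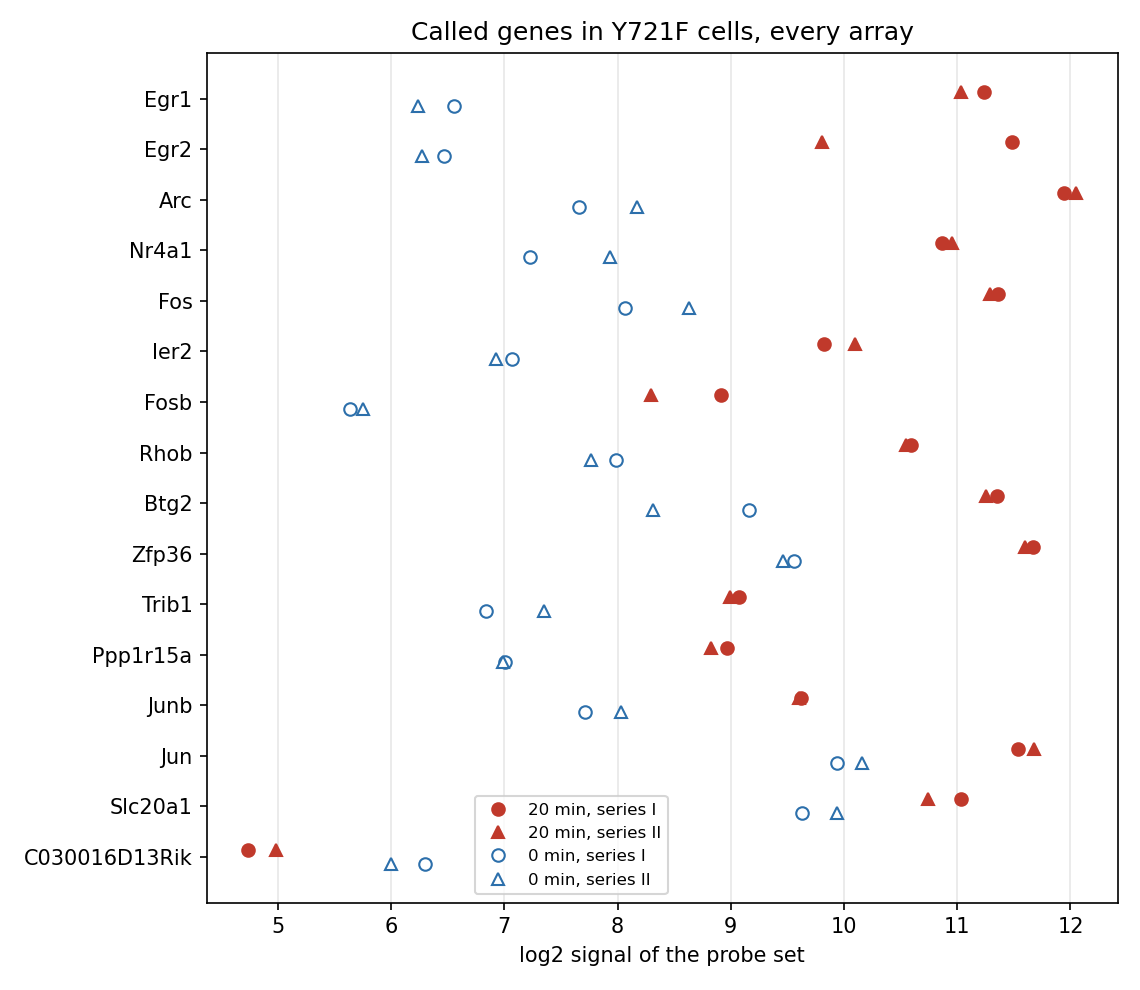
Log2 signal (horizontal axis) of the 16 genes called in Y721F cells, in each of the 4 arrays; filled red symbols are 20 min and open blue symbols 0 min, with circles for series I and triangles for series II. The 20 min and 0 min symbols do not overlap for any of the 16 genes, and the 2 stimulated arrays of Egr2, at 11.48 and 9.81, lie farthest apart.

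Of the 11 AP-1 subunits and partners measured, 4 rose, 2 of the FOS family and 2 of the JUN family. Fos measured 11.36 and 11.29 at 20 min, against 8.07 and 8.63 at 0 min (7.86-fold, adjusted p = 0.0119). Fosb, its close relative, measured 8.91 and 8.30 at 20 min, against 5.64 and 5.75 at 0 min (7.52-fold, adjusted p = 0.00968). Jun, which pairs with FOS proteins, was already at 9.94 and 10.16 in starved cells and reached 11.54 and 11.68 at 20 min (2.95-fold, adjusted p = 0.0178), while Junb measured 9.62 and 9.60 against 7.71 and 8.03 (3.34-fold, adjusted p = 0.0344). Stimulated and starved arrays were fully separate for these 4 genes. Fosl1 (1.23), Atf3 (1.05), Maff (0.83) and Fosl2 (0.77) also had both 20 min arrays above both 0 min arrays but did not pass either fit, and Batf (0.23), Jund (0.02) and Jdp2 (0.00) overlapped. The median difference of the list was 1.05, with 8 of 11 members separated upward.

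Nr4a1, an orphan nuclear receptor induced by many mitogens, was the 1 called member of its family of 3. It measured 10.87 and 10.95 at 20 min, against 7.23 and 7.93 at 0 min (10.1-fold, SE 0.34 on the log2 scale, adjusted p = 0.00324), so the stimulated arrays nearly coincided while the starved ones differed. Nr4a2 measured 7.86 and 8.88 at 20 min, against 7.16 and 8.14 at 0 min. Its groups overlapped, with series II higher at both times, and the step was upward in both series. Nr4a3 stayed between 4.73 and 5.03 in all 4 arrays. Of 9 Kruppel-like factors, none passed without the block and Klf6 passed with it, at 11.79 and 11.57 against 10.73 and 10.47 (adjusted p = 0.127 without and 0.0059 with the block). Klf2 measured 9.73 and 9.94 at 20 min and 8.50 and 7.86 at 0 min, a difference of 1.66 that missed both fits (adjusted p = 0.272 and 0.0545).

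The remaining immediate early genes formed a list of 30, of which 6 rose and 13 passed with the block. Arc, a retrovirus-derived capsid-like protein best known from neurons, measured 11.94 and 12.05 at 20 min, against 7.66 and 8.17 at 0 min (16.9-fold, adjusted p = 0.0308). Ier2, a small nuclear immediate early protein, measured 9.82 and 10.10 against 7.07 and 6.93 (7.78-fold, SE 0.20 on the log2 scale, adjusted p = 8.09e-05). The endosomal GTPase gene Rhob measured 10.59 and 10.55 against 7.99 and 7.77 (6.45-fold, adjusted p = 0.000398). Egr1, Ier2 and Rhob kept their calls under every alternative run, and their replicate arrays lay close together at both times. Zfp36 encodes tristetraprolin, which binds AU-rich elements and speeds the decay of cytokine and immediate early mRNAs, and it measured 11.67 and 11.60 at 20 min, against 9.56 and 9.46 at 0 min (4.36-fold, adjusted p = 0.0457). Btg2, an antiproliferative partner of the CCR4-NOT deadenylase, measured 11.35 and 11.25 against 9.16 and 8.31 (5.92-fold, adjusted p = 0.0308). Both stimulated Btg2 arrays were high and close, and the starved arrays differed by 0.85.

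Trib1, a pseudokinase that directs C/EBP proteins to degradation, measured 9.07 and 8.99 at 20 min, against 6.84 and 7.35 at 0 min (3.82-fold, adjusted p = 0.0256). The other 2 risers stood outside the lists. Ppp1r15a, or GADD34, the regulatory subunit that dephosphorylates the translation factor eIF2alpha, measured 8.97 and 8.83 against 7.01 and 6.99 (3.73-fold, adjusted p = 0.00425). Slc20a1, a sodium-dependent phosphate transporter, had the smallest rise, at 11.03 and 10.74 against 9.63 and 9.94 (2.14-fold, adjusted p = 0.0454), and was the 1 riser of 15 whose step was under 1 in a series (0.80 in series II). Of the 15 risers, 10 had the larger step in series I.

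The promoters below are printed because their genes rose, with or without the block, and hold a sequence that SRF or CREB is known to bind. RefSeq entries (GRCm38.p6, 250 bases before to 50 after the start site, 5′ to 3′ on the gene's strand) were on hand for 11 of the 15 risers and 25 of the 39 genes called with the block. Both strands were searched for the CArG box, the 10-base element of SRF, and for TGACGTCA, TGACTCA, GCGTGGGCG and CCGGAAGT, the known elements of CREB, AP-1, EGR and ETS factors; none of these motifs contains another. The capitals mark CArG boxes in the first 4 sequences and TGACGTCA in the last 2. Srf was chosen for printing after its values were seen.
Zfp36 (chr7:28379179-28379478, minus strand): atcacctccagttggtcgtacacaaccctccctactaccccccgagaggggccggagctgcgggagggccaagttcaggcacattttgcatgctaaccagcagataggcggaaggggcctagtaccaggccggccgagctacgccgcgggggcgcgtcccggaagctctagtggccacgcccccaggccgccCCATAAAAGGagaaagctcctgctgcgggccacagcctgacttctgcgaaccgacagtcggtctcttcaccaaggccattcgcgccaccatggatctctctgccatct
Egr2 (chr10:67537619-67537918, plus strand): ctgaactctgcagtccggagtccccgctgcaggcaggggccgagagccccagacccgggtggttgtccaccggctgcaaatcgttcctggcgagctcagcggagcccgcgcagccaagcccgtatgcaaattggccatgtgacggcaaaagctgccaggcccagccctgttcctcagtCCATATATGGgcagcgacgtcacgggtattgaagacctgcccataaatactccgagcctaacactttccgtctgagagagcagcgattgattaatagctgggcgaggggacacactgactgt
Srf (chr17:46556113-46556412, minus strand): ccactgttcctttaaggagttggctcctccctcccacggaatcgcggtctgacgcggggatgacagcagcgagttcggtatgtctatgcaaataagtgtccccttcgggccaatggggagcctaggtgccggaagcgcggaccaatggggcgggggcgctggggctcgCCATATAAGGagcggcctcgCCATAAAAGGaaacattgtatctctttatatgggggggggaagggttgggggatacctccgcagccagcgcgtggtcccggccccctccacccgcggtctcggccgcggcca
Dusp5 (chr19:53528895-53529194, plus strand): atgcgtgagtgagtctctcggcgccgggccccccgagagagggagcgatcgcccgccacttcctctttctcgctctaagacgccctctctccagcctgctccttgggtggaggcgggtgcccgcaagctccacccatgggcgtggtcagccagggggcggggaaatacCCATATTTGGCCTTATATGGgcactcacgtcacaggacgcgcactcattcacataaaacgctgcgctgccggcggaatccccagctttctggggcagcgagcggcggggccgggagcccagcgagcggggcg
Btg2 (chr1:134079106-134079405, minus strand): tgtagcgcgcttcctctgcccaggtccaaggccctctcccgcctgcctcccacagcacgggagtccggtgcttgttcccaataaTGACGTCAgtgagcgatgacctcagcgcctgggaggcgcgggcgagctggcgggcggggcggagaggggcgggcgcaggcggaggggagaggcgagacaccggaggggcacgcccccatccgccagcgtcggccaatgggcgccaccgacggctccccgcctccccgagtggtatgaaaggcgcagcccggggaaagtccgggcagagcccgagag
Ppp1r15a (chr7:45526219-45526518, minus strand): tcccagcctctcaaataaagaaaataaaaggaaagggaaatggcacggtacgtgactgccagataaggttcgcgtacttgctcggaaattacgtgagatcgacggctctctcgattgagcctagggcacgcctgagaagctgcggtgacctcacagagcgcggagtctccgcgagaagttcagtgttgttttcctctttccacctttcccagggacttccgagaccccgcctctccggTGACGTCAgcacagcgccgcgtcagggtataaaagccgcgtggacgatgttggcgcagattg

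The CArG box was in the window of 2 of the 11 risers (18.2%, Egr2 and Zfp36) and of 4 of the 25 genes called with the block (16%, with Dusp5 and Srf), against 254 of the 15614 tested genes with a promoter entry (1.63%). Egr2 has 5 start sites in the RefSeq table, and 4 of their windows hold a box. TGACGTCA was in 2 of 11 (18.2%, Btg2 and Ppp1r15a) and 5 of 25 (20%, with Dusp1, Errfi1 and Plk2), against 2.72% of tested genes. The boxes began 58 bases before the start in Zfp36, 72 in Egr2, 82 and 62 in Srf, and 82 and 72 in Dusp5. The AP-1, EGR and ETS letters were in 0 of the 25 windows, against 5.41%, 1.06% and 6.01% of tested genes. A match describes these letters only, and factor binding was not measured.

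Negative feedback genes of the ERK pathway were listed together with others such as the ETS factors Ets1, Ets2, Etv4 and Etv5. None of the 22 passed without the block, and 3 passed with it. Dusp1, a nuclear MAP kinase phosphatase, measured 12.07 and 12.57 at 20 min, against 9.72 and 10.56 at 0 min (difference 2.18, adjusted p = 0.23 without and 0.000287 with the block). Series II was higher than series I at both times, so the steps, 2.35 and 2.01, were closer than the levels. Dusp5, a phosphatase specific for ERK, measured 9.66 and 9.47 against 7.44 and 7.58 (2.06, adjusted p = 0.104 and 0.00512). Errfi1, an inhibitor of EGF-receptor family kinases, measured 9.97 and 10.16 against 8.48 and 8.57 (1.54, adjusted p = 0.532 and 0.00469). Dusp4 (1.26) was separated upward but passed neither fit. The cytoplasmic ERK phosphatase Dusp6 had steps of 0.02 and 1.02, and Spry2, a Sprouty inhibitor of Ras signalling, had steps of 0.18 and 0.14. The median of the 22 genes was 0.23, with 15 separated upward.

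Among 27 cytokine, chemokine and growth factor genes, including Ptgs2, none passed without the block and 4 passed with it. Ccl2, the main monocyte attractant, measured 11.82 and 10.99 at 20 min, against 8.63 and 7.61 at 0 min (9.75-fold, adjusted p = 0.053 without and 3.25e-05 with the block). Ccl7, a related monocyte chemokine, measured 11.27 and 9.42 against 7.61 and 6.36 (10.3-fold, adjusted p = 0.662 and 0.000264). For both chemokines the groups were separate, series I was the higher one at each time, and the steps within a series were close to each other (3.19 and 3.38 for Ccl2, 3.66 and 3.06 for Ccl7). Ptgs2, or cyclooxygenase-2, measured 9.27 and 10.50 against 6.43 and 7.19 (8.43-fold, adjusted p = 0.23 and 0.00242), with series II the higher. Osm, an IL-6 family cytokine, measured 8.29 and 8.10 against 6.90 and 6.61 (2.71-fold, adjusted p = 0.263 and 0.0026). Tnf measured 10.15 and 10.42 against 8.64 and 9.64 (difference 1.15, adjusted p = 0.182 with the block). Ccl3 (1.04), Ccl4 (1.07) and Ccl12 (1.38) were separated upward without passing either fit, while Csf2 (-0.02), Csf3 (-0.06) and Il23a (-0.09) overlapped. Il6 was dim in all 4 arrays, at 2.92 and 3.01 against 3.23 and 3.19, and was not called.

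Of 20 NF-kB and cytokine signalling genes, brakes listed together with others such as the subunits Rel, Relb and Nfkb2, 2 passed with the block. Socs3, which blocks JAK kinases, measured 11.20 and 9.74 at 20 min, against 8.32 and 8.07 at 0 min (difference 2.28, adjusted p = 0.129 without and 0.0059 with the block), and its other probe set gave 1.56. As for Egr2, the stimulated array of series I was the higher one. Nfkbiz, an atypical nuclear IkB protein, measured 8.34 and 8.16 against 6.69 and 7.09 (1.36, adjusted p = 0.127 and 0.00956). Socs1 (1.15), Nfkbid (0.80) and Cish (0.71) were separated upward without a call. The classic NF-kB targets Nfkbia (0.08) and Tnfaip3 (-0.34) overlapped between times, and the median of the list was 0.01.

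Other genes also rose only in the fit with the block. Myc, the growth-promoting transcription factor, measured 8.91 and 8.50 at 20 min, against 7.04 and 6.84 at 0 min (3.40-fold, adjusted p = 0.695 without and 0.00606 with the block). The polo-like kinases Plk3, at 9.56 and 10.05 against 7.23 and 8.40, and Plk2, at 10.38 and 9.49 against 8.73 and 7.70, passed with the block (adjusted p = 0.00555 and 0.00722), as did Ier3 (1.39, adjusted p = 0.042). Rgs1, a brake on chemokine receptor signalling, measured 10.76 and 10.81 against 8.91 and 8.37 (4.42-fold, adjusted p = 0.443 and 0.00933). In each of these the groups were separate in all 4 arrays. The large p-values without the block came with standard errors above those with it, 0.64 against 0.24 for Myc and 0.58 against 0.24 for Plk2.

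**Figure D2:**
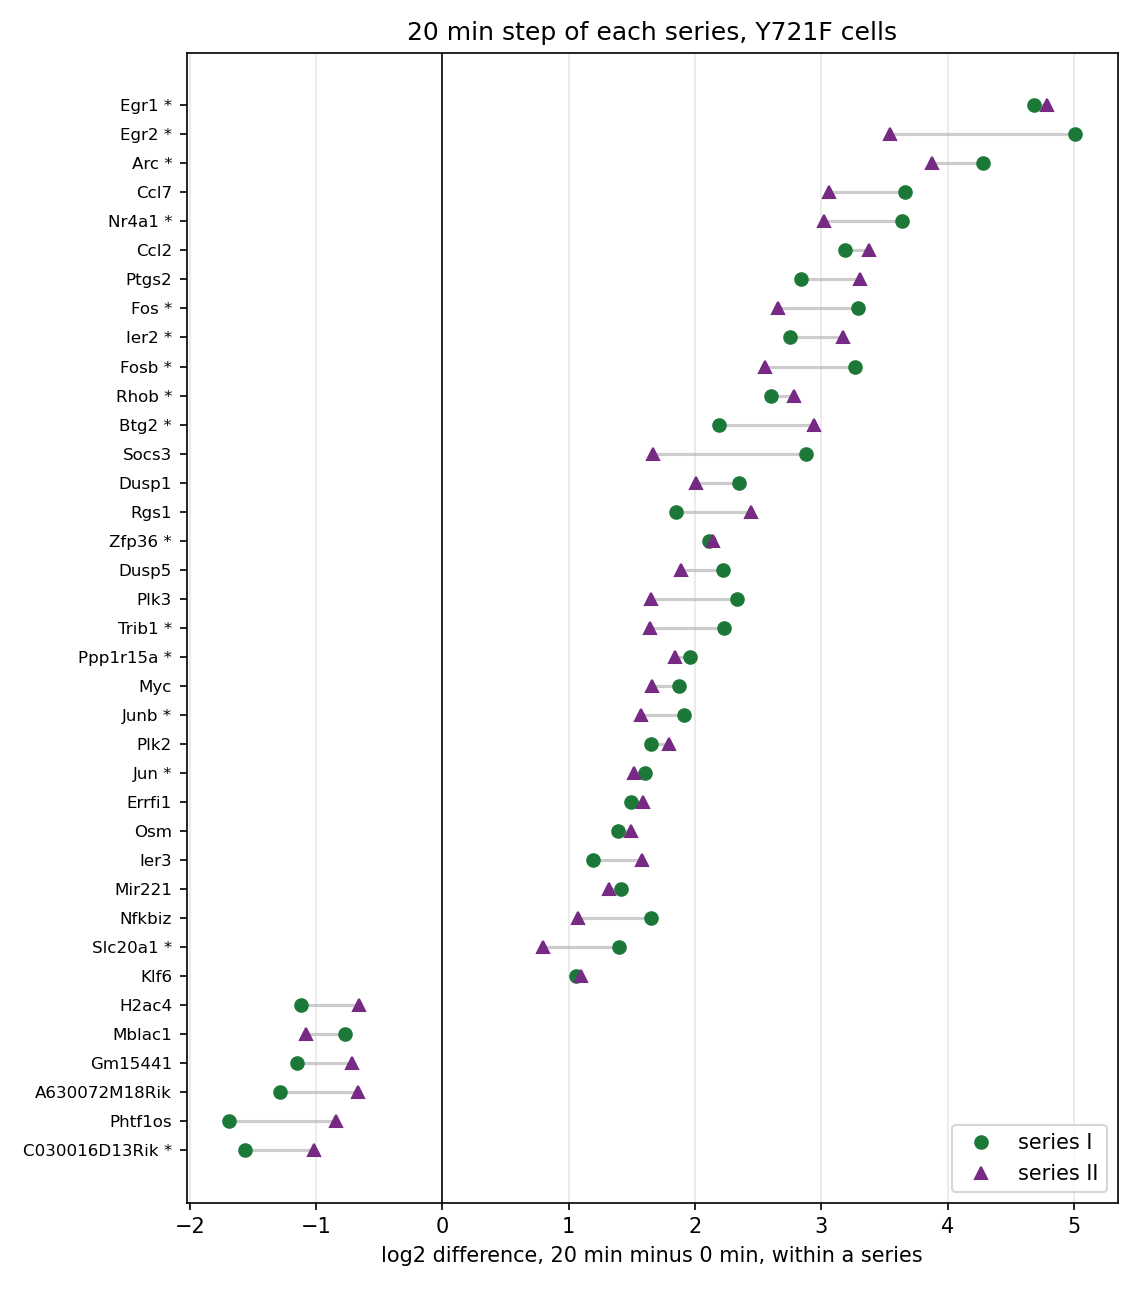
Log2 difference, 20 min minus 0 min, within each series of Y721F cells (horizontal axis; green circles series I, purple triangles series II, grey lines joining them) for the named genes called with the block, an asterisk marking those also called without it. Both symbols lie on the same side of 0 for every gene shown, and they are farthest apart for Egr2, at 5.01 in series I and 3.54 in series II.

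The transcripts of a microRNA pair also passed with the block. The probe set of Mir221 measured 6.84 and 6.99 at 20 min, against 5.43 and 5.67 at 0 min (2.58-fold, adjusted p = 0.205 without and 0.00722 with the block), and that of its chromosomal neighbour Mir222, named after its values were seen, measured 6.39 and 5.81 against 5.11 and 5.04 (difference 1.03, adjusted p = 0.693 and 0.013). The stimulated and starved arrays were separate for both. These probe sets detect RNA of the miRNA genes and do not measure the mature miRNAs. The mature 3p sequences from RefSeq (GRCm38.p6) are shown because both genes moved and share a seed, bases 2 to 8, in capitals.
mmu-miR-221-3p (chrX:19146307-19146329, minus strand): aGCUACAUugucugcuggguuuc
mmu-miR-222-3p (chrX:19146901-19146923, minus strand): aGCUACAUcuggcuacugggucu

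Genes lower at 20 min were few and changed less. C030016D13Rik, an uncharacterised transcript, fell to 4.74 and 4.98 at 20 min, against 6.30 and 6.0 at 0 min (difference -1.29, adjusted p = 0.0308). The stimulated values lie near 4.87, the 20th percentile of gene means over the 32 arrays. The 5 next largest, called only with the block, were Phtf1os (-1.27), A630072M18Rik (-0.98), Gm15441 (-0.94), Mblac1 (-0.93) and the histone gene H2ac4 (-0.89), with adjusted p from 0.0018 to 0.041. H2ac4 measured 8.27 and 9.54 against 9.39 and 10.20, so its groups overlapped and the call rests on the steps within each series. The other 4 fell by 0.66 to 0.83. No list had a called member that fell.

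Lists of slower CSF-1 programmes and of other cell types had no called member besides Btg2. Of 18 FOXO targets and starvation genes, which nutrient and growth factor signalling is known to repress, 0 were called by limma with or without the block, the median was -0.19, and it was -0.34 in series I and -0.01 in series II. Cdkn1b, an inhibitor of cell-cycle kinases, measured 9.44 and 9.86 at 20 min and 10.24 and 9.97 at 0 min, and Txnip measured 10.56 and 10.19 against 11.85 and 10.49. Of 17 cholesterol synthesis genes 0 were called, and their median, 0.36, was 0.68 in series I and 0.01 in series II. For the FOXO and cholesterol lists the medians of series II were thus near 0. Ribosome biogenesis (22 genes, median 0.10) and glycolysis (12 genes, median 0.06) had no called member, and neither had the 18 CSF receptor and PI3K pathway genes (median -0.03). Of 9 reported miR-21 targets, Btg2 rose and the other 8 lay between -0.11 and 0.54.

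Several cell type lists shifted in series I, and fibroblast markers were 1 of them. Granulocyte, lymphocyte and osteoclast genes had median steps of 0.20, 0.22 and 0.235 in series I, against 0.07, 0.045 and 0.06 in series II. Those of macrophage genes were -0.245 and -0.09, and those of dendritic cell genes 0.03 and 0.03. Fibroblast genes had low mean levels, 6.22 and 6.04 at 20 min. The summed level of 12 fibroblast genes was 74.64 and 72.50 at 20 min and 69.89 and 73.21 at 0 min, the median step was 0.42 in series I and 0.02 in series II, and 0 of 12 were called. The 16 macrophage genes summed to 168.41 and 170.27 at 20 min and to 171.81 and 171.22 at 0 min, with 6 separated downward. Granulocyte genes summed to 65.32 and 63.96 against 63.61 and 63.27, lymphocyte genes to 50.44 and 48.63 against 48.54 and 48.23, dendritic cell genes to 50.99 and 50.10 against 50.21 and 50.61, and osteoclast genes to 80.84 and 81.39 against 78.82 and 81.06. The starved array of series I held the lowest fibroblast and osteoclast sums. The part of these shifts in the results above was not tested.

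**Figure D3:**
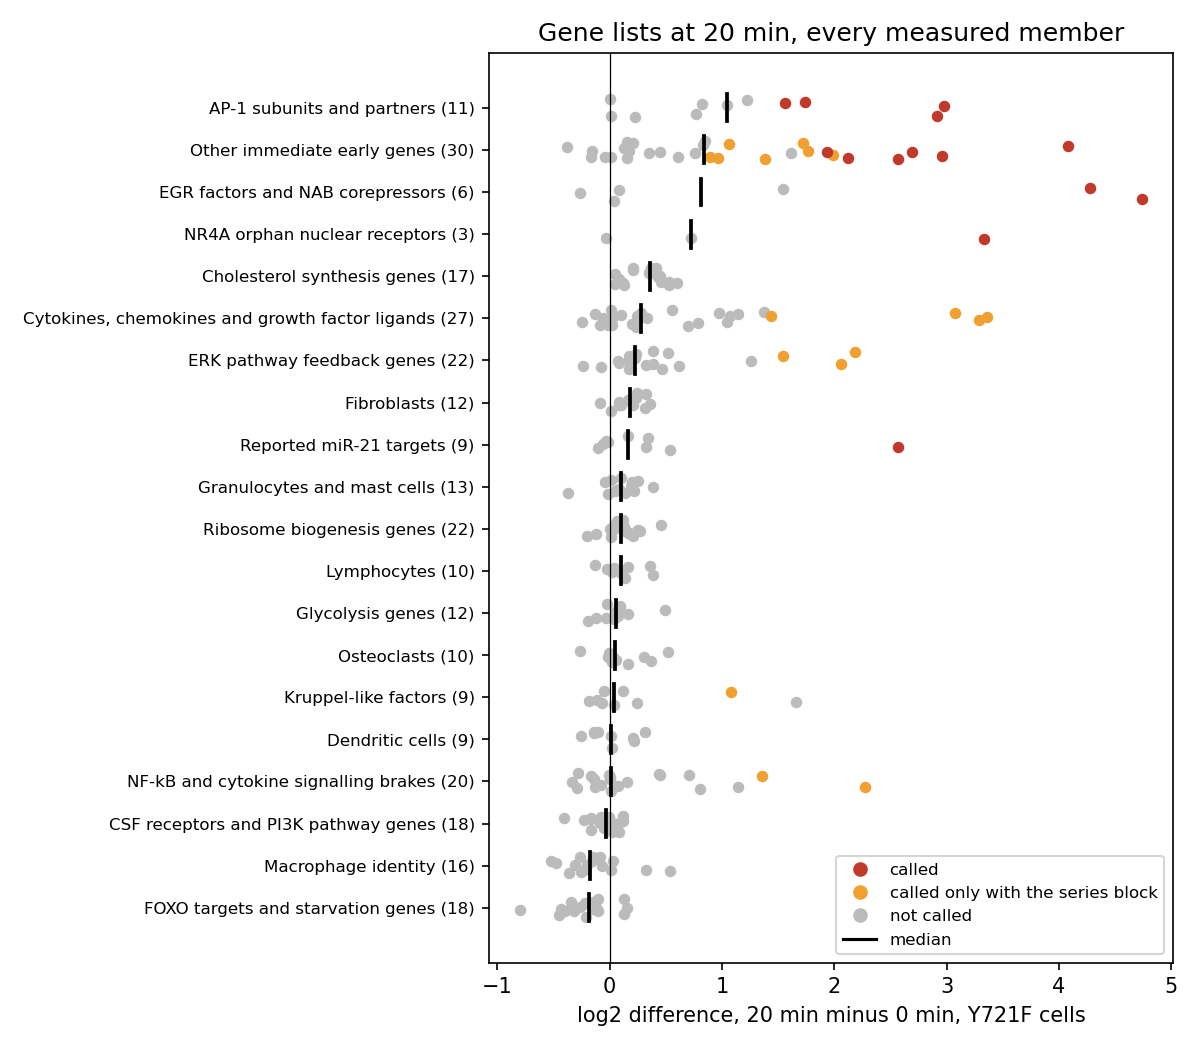
Log2 difference, 20 min minus 0 min, in Y721F cells (horizontal axis) for every measured member of the gene lists (rows, measured members in brackets), with red points for genes called, orange for those called only with the block, grey for the rest and a black bar for the median. Called members sit in the EGR, AP-1, NR4A and other immediate early lists and, through Btg2, among the miR-21 targets; the medians run from -0.19 for FOXO targets to 1.05 for AP-1.

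WT cells gave the same comparison with an intact Tyr-721, and the Y721F response was set beside it. In WT cells 31 genes rose (0.155%), and 14 of the 15 Y721F risers were among them. The exception was Arc, which measured 9.90 and 11.77 at 20 min and 7.50 and 7.81 at 0 min in WT cells and was called there with the block (adjusted p = 0.0823 without and 0.000697 with it). With the block 81 genes rose in WT cells (0.406%), and they held 38 of the 39 Y721F genes, a share of 38 of 81 of the WT list. The exception, Mdm2, was higher by 0.62 in Y721F and by 0.58 in WT cells, on either side of the fold threshold. Of the 10 genes that fell with the block in Y721F cells, 3 were among the 5 that did so in WT cells (0.0251%).

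The difference between the responses, as a contrast of its own, was called for 0 genes by limma and for 1 with the block (0.00502%). Without the block, 810 of 19938 genes had an unadjusted p under 0.05, fewer than the share of 0.05 due with no difference. With the block 1484 had, which is more than that share. The gene called with the block was Il1b, the inflammatory cytokine IL-1beta. It measured 5.94 and 7.02 at 20 min and 5.59 and 5.79 at 0 min in Y721F cells, and 9.72 and 10.06 at 20 min and 5.80 and 6.46 at 0 min in WT cells (difference of responses -2.97, adjusted p = 0.0328 with the block, and from 0.387 to 1 in the other settings). The starved levels of the lines were close and the stimulated ones apart. Cxcl2, a neutrophil attractant, measured 6.74 and 7.61 against 6.18 and 6.22 in Y721F cells and 11.38 and 10.01 against 7.20 and 7.38 in WT cells (difference of responses -2.43, adjusted p = 0.648 with the block). Il1a (-1.86), Ptgs2 (-1.84), Gm6377 (-2.04) and Osm (-1.74, adjusted p = 0.116 with the block) had differences of the same sign that did not pass. For Il1a and Gm6377 the starved levels of the lines were already apart. At 0 min Il1a measured 5.74 and 5.90 in Y721F cells and 8.12 and 7.79 in WT cells. Gm6377 measured 5.30 and 5.16 against 6.65 and 6.12. For Osm all 4 values of the steps were upward, 1.39 and 1.49 in Y721F cells and 3.63 and 2.72 in WT cells. Arg1, the arginine-degrading enzyme, measured 5.45 and 5.69 at 20 min and 5.14 and 5.73 at 0 min in Y721F cells, and 7.87 and 8.06 against 6.08 and 6.80 in WT cells (difference of responses -1.39, adjusted p = 0.648 with the block).

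The 15 risers of Y721F cells were set beside WT cells as well. Of the 15, 12 had the smaller rise in Y721F cells. Without the block, Nr4a1 was the 1 gene of the 15 with an unadjusted limma p under 0.05 for the difference. It rose by 3.33 in Y721F cells and by 4.62 in WT cells (adjusted p = 0.648 with the block). With the block Fosb was under 0.05 as well (difference -0.93, unadjusted p = 0.0477, adjusted p = 0.666). Jun rose by 1.56 in Y721F cells and by 1.52 in WT cells, Zfp36 by 2.13 and 2.04, and Slc20a1 by 1.1 and 1.16. Among the 15, the largest difference in the other direction was that of Arc, 0.90 with an SE of 0.82 without the block and 0.48 with it. Of the 39 genes called with the block, 30 had the smaller rise in Y721F cells. A missing call does not show equal responses: for Egr1 the difference was -0.33 with an SE of 0.42 without the block and 0.28 with it. Upward differences were also ranked among genes with an unadjusted p under 0.05 with the block that passed the fold threshold in at least 1 line. The largest of these, Olfr767 (1.38), Fam71a (0.94), Vmn2r93 (0.92), F630111L10Rik (0.91) and Gm11564 (0.88), did not pass in either fit. In Y721F cells the steps of series I and II were 1.09 and 0.05 for Olfr767 and 1.56 and 0.19 for Fam71a.

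**Figure D4:**
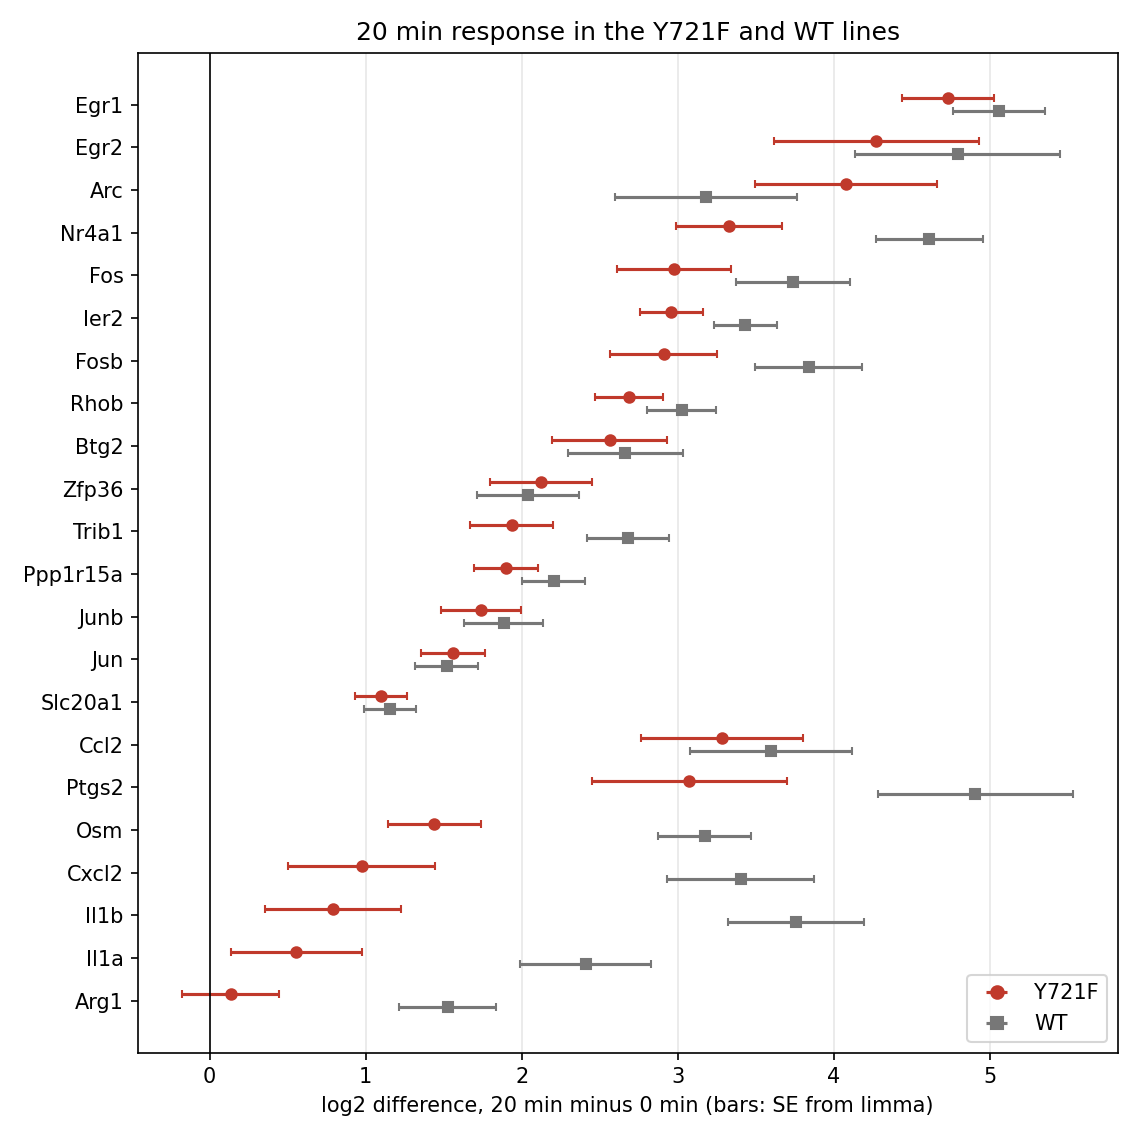
Log2 difference, 20 min minus 0 min, for 22 genes in Y721F cells (red circles) and WT cells (grey squares), with bars for the standard error from limma over 2 arrays a group. The bars of the lines overlap for Egr1, Jun, Zfp36 and Slc20a1 and are apart, with the Y721F value the lower, for the risers Nr4a1, Fos, Ier2, Fosb and Trib1 and for Ptgs2, Osm, Cxcl2, Il1b, Il1a and Arg1, genes partly chosen for their difference between lines. No difference between lines was called in the fit that gave these bars.

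Over the next hours the 20 min set of Y721F cells followed different courses. By 60 min 4 genes had fallen from their 20 min level (0.0201%), all of them risers of 20 min, and 6 other genes had risen (0.0301%). The contrast shares the 20 min arrays with the first comparison, so genes chosen as high at 20 min are the more likely to be lower afterwards. Fos measured 8.07 and 8.63 at 0 min, 11.36 and 11.29 at 20 min, 8.53 and 8.18 at 60 min and 9.48 and 9.18 at 180 min (60 minus 20 min -2.97, adjusted p = 0.0175). Its 60 min arrays were thus back in the starved range. Ier2 measured 7.07 and 6.93, then 9.82 and 10.10, then 8.27 and 7.76, and 7.07 and 6.91 at 180 min (-1.95, adjusted p = 0.00888). Btg2 had differences of -2.53 (adjusted p = 0.0475) and Ppp1r15a of -1.50 (adjusted p = 0.0319) between 60 and 20 min. With the block 8 of the 39 genes fell and 1 rose, out of 12 that fell (0.0602%) and 36 that rose (0.181%) among all genes.

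Other risers had 60 min values near or above those of 20 min. Fosb, unlike Fos, measured 9.19 and 7.87 at 60 min, against 8.91 and 8.30 at 20 min, and was back at 5.65 and 5.88 at 180 min. Nr4a1 measured 11.44 and 10.52 at 60 min and 7.48 and 7.81 at 180 min, within the range of starved cells. Trib1 measured 10.15 and 9.26 at 60 min, above both 20 min arrays, and 8.46 and 8.27 at 180 min. At 60 min 12 of the 15 risers had a mean below that of 20 min, and at 180 min all 15 had. Ccl2 measured 11.69 and 10.68 at 60 min and 11.34 and 11.17 at 180 min, close to 20 min. Myc measured 10.38 and 9.46 at 60 min, above both 20 min arrays, and 9.42 and 8.83 at 180 min, and the Mir221 probe set measured 8.02 and 7.63 and then 7.35 and 7.43. Ccnd1, the G1 cyclin that growth factors induce, measured 8.86 and 9.69 at 20 min, overlapping 9.17 and 9.09 at 0 min, and 11.27 and 11.06 at 180 min.

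**Figure D5:**
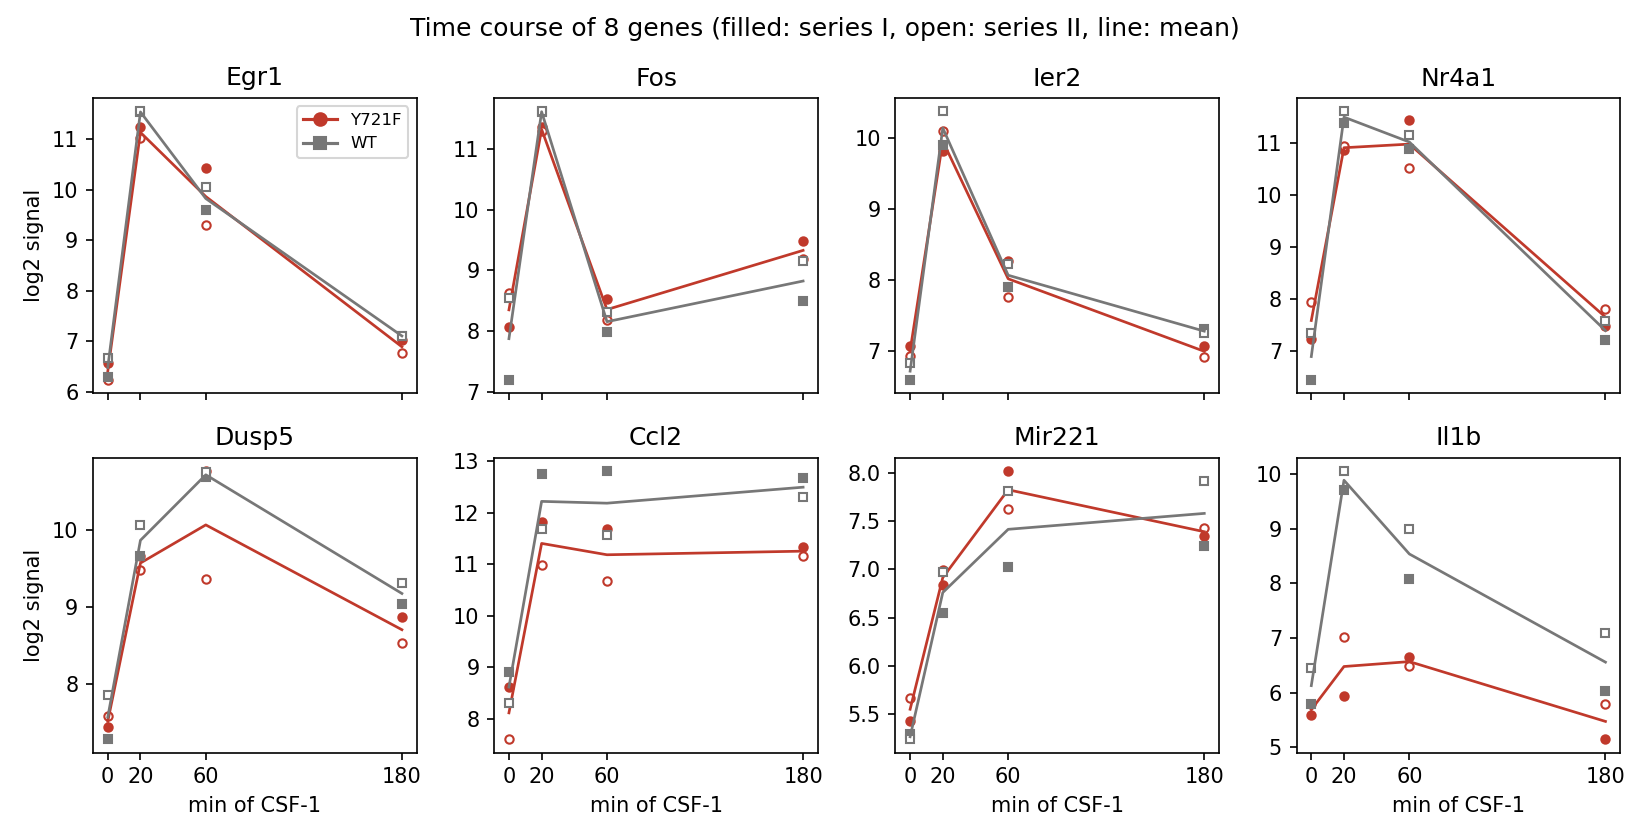
Log2 signal (vertical axis, its range set for each gene) of 8 genes at 0, 20, 60 and 180 min of CSF-1 (horizontal axis) in Y721F cells (red) and WT cells (grey), with filled points for series I, open points for series II and lines through the means. In Y721F cells Fos is back in its 0 min range at 60 min and Nr4a1 at 180 min, while Ccl2 lies between 10.68 and 11.82 from 20 to 180 min.

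Cells grown constantly in CSF-1 were compared with starved cells of the same line. On the separate steady-state arrays of the line, where 693 genes were higher (3.48%) and 292 lower (1.46%) in grown than in starved cells, 0 of the 15 were called by limma, and 2 had an unadjusted p under 0.05. The spread in this fit came from the steady-state arrays of all lines of the series, which include receptor forms not described here. With only the 4 arrays of the Y721F line the calls went from 985 to 215. Egr1 measured 6.33 and 8.12 in grown cells and 6.81 and 7.03 in starved cells, and Fos 7.90 and 9.20 against 8.30 and 9.77. In 7 of the 15 the grown array of series II was more than 1 above that of series I, among them Ier2, at 7.32 and 9.0, and Ppp1r15a, at 6.84 and 8.45. Of the 39 genes called with the block, 6 were higher in grown cells, 1 was lower and 32 were not called; with the block in this comparison too, where 4.04% of genes were higher and 1.65% lower, 8 were higher and 1 lower, Plk2 (1.47, adjusted p = 0.0022) and Ier3 (0.76, adjusted p = 0.0195) among the higher. Ccl2 measured 10.63 and 9.59 in grown cells, against 6.41 and 6.82 in starved cells (difference 3.50, adjusted p = 6.26e-05). Rgs1 (2.65, adjusted p = 0.0065), Errfi1 (1.94, adjusted p = 0.00326), Ccl7 (1.83, adjusted p = 0.0027), Plk3 (1.10, adjusted p = 0.0315) and Mdm2 were the others that rose without the block, and Id3 fell. These 6 genes were thus higher than in starved cells both after 20 min of CSF-1 and in continuous culture.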

How the data were processed

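The deposited table holds log2 signals of 35556 probe sets on 32 arrays; no source used here states the authors' background correction or normalization, and the values were used as deposited. Probe sets were named from GEO's platform annotation: 21789 had 1 gene, 1621 several and 12146 no entry, 21698 matched RefSeq, and the probe set with the highest mean stood for each of 19938 genes (999 had several). Differences were fitted with limma 3.58.1 in R 4.3.3 (lmFit, eBayes) over the 16 time-course arrays, 8 groups without a block, and over the 16 steady-state arrays for grown against starved cells. The steady-state arrays cover 4 lines: WT, Y721F and the other receptor forms of the series, which are not described here. The spread in that fit thus comes from all 4 lines. A gene was called at a Benjamini-Hochberg adjusted p under 0.05 and a fold above 1.5. The series number pairs the arrays: the deviations of same-numbered arrays correlated at 0.353 to 0.648 over 6 pairs of times in Y721F cells and at 0.487 to 0.734 over 6 in WT cells, so fits with that block stand beside results they change. The fits were also run on simulated arrays with known changes. The simulated noise was independent between arrays, so this could not test the pairing by series. Of 303 genes in 20 lists, 290 were measured. Members and lists were chosen with earlier results of these data known. Genes were named by a rule: all calls, the 15 rising and 5 falling calls of largest size made only with the block, up to 4 calls a list, a set of CSF-1 genes whatever their value, and 5 differences of responses each way. These 5 were the largest among genes with an unadjusted p under 0.05 for the difference with the block. Such genes also had to pass the fold threshold in at least 1 line. Promoter and miRNA sequences are from RefSeq. With 2 arrays a group, the number of arrays limits the precision.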

Additional observations from a re-analysis of the deposited data

Results flagged for a closer look

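The 20 min responses of the lines differed in a test of the difference itself for 1 gene: Il1b, with a difference of -2.97 (Y721F minus WT, log2) that was called in the fit with the series block and not in the fit without it. Between 60 and 20 min in Y721F cells, 4 of the 15 risers were called lower, and among all genes the share was 0.0201%. The log2 differences, 60 minus 20 min, were -2.97 for Fos, -2.53 for Btg2, -1.95 for Ier2 and -1.5 for Ppp1r15a. This contrast shares the 20 min arrays by which the risers were chosen as high, so a later fall is the more likely for them. Groups of 2 arrays are too small to test for outlying arrays.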

How the results depend on the processing

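With the series number as a block (the replicate block), the calls at 20 against 0 min went to 49 in Y721F cells, against 16 without it, and to 86 in WT cells, against 32; those of 60 against 20 min went to 48, against 10, and those of the difference between lines to 1, against 0. For Y721F cells at 20 min the other settings gave 9 calls with quantile normalization, 7 with median centring, 10 from the 8 Y721F time-course arrays alone, and 128 with the series' own cutoff of an unadjusted p; leaving out 1 array gave 3 to 13 calls (3 without the 20 min array of series I, 13 without that of series II, 3 without the 0 min array of series I and 4 without that of series II). Egr1, Ier2 and Rhob kept their calls throughout. Quantile normalization lost the calls of Arc, Btg2, C030016D13Rik, Egr2, Junb, Slc20a1 and Zfp36, and median centring lost these and those of Jun and Trib1. Of the 10 calls from the 8 Y721F arrays, 8 were among the 16. The unadjusted cutoff gave 144 for the difference, 148 for WT and 154 for 60 against 20 min. Leaving out 1 array gave 12 to 20 calls for WT and 0 to 6 for 60 against 20 min, which quantile normalization put at 6. Grown against starved cells gave 985 calls, 215 from the 4 arrays alone and 229 to 1230 without 1 array (229 without the starved array of series II). No called value changed sign. Of 647 values of the 54 named genes at 20 against 0 min, 76 lost the call, 31 gained it and 6 changed sign, in Arg1, Ccnd1, Csf1r, Il1a and Pdcd4; of 755 differences between lines, 52 changed sign, in 25 genes. The median of all genes moved from 0.02 to 0.003 with quantile normalization and to -0.04 with median centring. With 2 arrays a group, a missing call does not show that a gene did not respond.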
